A study of Mus musculus with 12 samples.

Results

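The serpins are a superfamily of serine protease inhibitors, and the members described here are the genes whose symbol in the platform's probe annotation begins with Serpin, a clade letter from a to i and a number. There were 43 such genes, with 46 probes, among 19084 genes measured. Of the 43, 14 belonged to clade A, 21 to clade B, 2 each to clades F and I, and 1 each to clades C, D, G and H. For each gene the probe with the highest mean signal was used. Of 18 listed serpins that hepatocytes secrete into plasma, 10 were measured, and the other 33 members formed the second class.

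Liver RNA of male C57BL/6 mice was hybridised to 12 single-colour arrays, 3 in each of 4 groups, in a study of PTFC, total flavonoids purified from Citrus, and fatty liver. All mice were fasted overnight before the liver was taken, and 6 mice were kept in each group. PTFC mice ate a high-fat diet (36.1% fat, 21.6% protein, 42.3% carbohydrate and 2% added cholesterol) and, after 6 weeks of it, received PTFC intragastrically for 18 weeks at 50 mg/kg daily, to an age of 31 to 33 weeks. HFD24 mice ate the high-fat diet for 24 weeks with saline, to an age of 31 to 33 weeks. HFD16 mice ate it for 16 weeks with saline and were 23 to 25 weeks old, so that age cannot be told apart from diet wherever HFD16 enters. ND mice ate a normal diet (12.3% fat, 21.5% protein, 66.2% carbohydrate) for 24 weeks with saline, to 30 to 33 weeks of age. The labels do not say whether replicates of a group were different animals or pooled ones, so a p-value here reflects the spread among these arrays, which can be technical.

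An inhibitory serpin presents an exposed reactive loop as bait, and when a protease cleaves it the serpin changes shape and traps the protease in a covalent complex. The liver secretes most plasma serpins, among them the brakes on coagulation, fibrinolysis and complement, and some members have lost inhibition and carry hormones or chaperone collagen. Clade B serpins lack a classical secretion signal and act mostly inside cells, where several guard leukocytes and their targets against granule proteases.

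Promoter sequence is shown for the 5 members whose difference passed the test and exceeded 1.5 on the log2 scale in either of the 2 comparisons with HFD24 livers. Each window runs from 250 bases before to 50 bases after the RefSeq transcript start in the mouse assembly GRCm38.p6, 5′ to 3′ on the strand of the gene, and capitals mark matches to 8 short motifs.
Serpinh1, chr7:99353190-99353489, minus strand: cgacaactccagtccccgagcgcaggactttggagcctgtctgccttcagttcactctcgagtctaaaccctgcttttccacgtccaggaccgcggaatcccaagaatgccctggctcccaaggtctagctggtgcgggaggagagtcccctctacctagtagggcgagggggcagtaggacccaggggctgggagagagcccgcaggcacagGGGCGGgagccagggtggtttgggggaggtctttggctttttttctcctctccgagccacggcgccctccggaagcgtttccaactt
Serpinb9, chr13:33004291-33004590, plus strand: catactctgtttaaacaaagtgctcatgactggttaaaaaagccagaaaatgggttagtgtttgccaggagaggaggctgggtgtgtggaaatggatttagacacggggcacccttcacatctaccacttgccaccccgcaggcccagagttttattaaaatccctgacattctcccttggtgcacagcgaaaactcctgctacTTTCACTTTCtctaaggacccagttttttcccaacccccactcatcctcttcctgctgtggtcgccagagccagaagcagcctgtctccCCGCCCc
Serpinb9c, chr13:33158302-33158601, minus strand: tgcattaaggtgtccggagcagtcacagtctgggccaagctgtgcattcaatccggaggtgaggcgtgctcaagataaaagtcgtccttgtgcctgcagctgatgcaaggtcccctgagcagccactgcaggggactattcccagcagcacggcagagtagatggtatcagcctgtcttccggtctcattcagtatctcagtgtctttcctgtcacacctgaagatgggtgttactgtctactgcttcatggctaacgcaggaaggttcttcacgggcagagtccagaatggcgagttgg
Serpina12, chr12:104044394-104044693, minus strand: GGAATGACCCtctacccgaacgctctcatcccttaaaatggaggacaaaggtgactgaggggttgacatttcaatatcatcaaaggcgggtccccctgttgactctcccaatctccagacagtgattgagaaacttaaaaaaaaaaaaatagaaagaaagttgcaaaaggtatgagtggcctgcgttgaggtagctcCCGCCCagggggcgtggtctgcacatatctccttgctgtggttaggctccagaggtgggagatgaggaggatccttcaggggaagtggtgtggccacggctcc
Serpina3f, chr12:104214294-104214593, plus strand: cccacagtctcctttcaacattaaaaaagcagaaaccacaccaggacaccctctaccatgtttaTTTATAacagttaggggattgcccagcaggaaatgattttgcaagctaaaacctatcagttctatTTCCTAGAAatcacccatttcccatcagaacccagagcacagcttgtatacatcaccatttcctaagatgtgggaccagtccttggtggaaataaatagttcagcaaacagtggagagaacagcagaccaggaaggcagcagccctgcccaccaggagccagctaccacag

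The motifs were searched on both strands in the 32851 windows of the RefSeq table, of which 46 belonged to 37 of the 43 members. Serpinh1 held the GC box GGGCGG at position -37 from the start, a motif in 35.7% of all windows and in 7 of the 37 members. The interferon regulatory factor motif, 2 copies of GAAA that are 2 bases apart, was in 3.44% of all windows and in 3 members, and Serpinb9 held it on the opposite strand as TTTCACTTTC at -46, beside a GC box at 44. In Serpina12, an NF-kappaB motif, GGG and TTCC 3 bases apart and found in 5.56% of windows and in 2 members, matched on the opposite strand as GGAATGACCC at -250, and a GC box at -53. The window of Serpina3f held the STAT motif TTCNNNGAA, found in 8.3% of windows and in 6 members, as TTCCTAGAA at -121, and a TATA box motif (TATAAA, 13.6% of windows) on the opposite strand at -186. No motif matched in the Serpinb9c window shown, which is 1 of 2 listed for that gene, as is the Serpina3f window. The remaining motifs were AP-1 (TGANTCA, 7.81% of windows, 7 members), an HNF1 motif (GTTAAT, 7.1%, 4 members) and a heat shock factor motif (GAA, TTC and GAA, each 2 bases apart, 0.603%, 0 members). A match describes letters only, and binding at these windows was not measured.

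Median intensity lay between 369 and 408 on PTFC arrays, 249 and 338 on HFD24 arrays, 278 and 330.1 on HFD16 arrays, and 300.3 and 379 on ND arrays. Across genes, arrays of 1 group correlated at r of 0.981 to 0.993 and arrays of different groups at 0.961 to 0.989. The labelled tissue showed its markers: the 6 measured hepatocyte markers of 7, Alb, Ttr, Apoa1, Hnf4a, Cps1 and Tat, summed to intensities of 1326000 or more on each array. Levels below are quantile normalized log2(intensity + 1), and every difference is a log2 difference of group means with its standard error (SE, n = 3 per group) from limma. The threshold was a Benjamini-Hochberg adjusted p of 0.05 over all 19084 genes. The number of arrays limits the precision, and an exact permutation test of 3 against 3 arrays cannot give a p below 0.1.

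Between HFD24 and ND livers serpins differed in both directions, at a share near that of all genes, though the share varied between parts of the family. Of the 43 members, 10 passed between HFD24 and ND livers (23.3%), against 18.3% of all genes, bright and dim alike. Among members outside the secreted class and outside the dimmest 25% of genes, 8 of 15 passed (53.3%). Of the secreted hepatocyte serpins 1 of 10 passed (10%), and of members in the dimmest 25% of genes 1 of 18 (5.56%). Higher in HFD24 livers were the collagen chaperone Serpinh1, the granzyme B inhibitor Serpinb9, the clade A members Serpina3f and Serpina12, Serpinb6b, and Serping1, the C1 inhibitor. Lower were 4 clade B members, Serpinb9c, Serpinb6e, Serpinb6d and Serpinb6c. The 6 higher compare with 9.97% of all genes higher, and the 4 lower with 8.28% lower. Array values of HFD24 and ND livers were fully separated in 16 members (37.2%), against 33.6% of all genes. The median difference of the 43 members was log2 0.16, against -0.06 over all genes. Leaving out 1 array at a time gave 7 to 13 members past the test.

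PTFC livers differed from HFD24 livers in fewer members. Serpina12 and Serpinb9b were lower and Serpinb9c higher, 3 of 43 (6.98%), against 6% of all genes, of which 2.96% were higher and 3.04% lower. Arrays did not overlap in 16 members, against 31.1% of all genes. This comparison shares the HFD24 arrays with the previous one, so opposite signs in both are not independent. The count rested on single arrays. It was 1 without the first or the third PTFC array or without the first or the third HFD24 array. It was 5 without the first HFD16 array, 6 without the second and 9 without the third ND array, and Serpina12 passed in each of these.

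Between HFD16 and ND livers 11 members passed, 8 higher and 3 lower (25.6%), against 18.1% of all genes, 10% higher and 8.11% lower. Outside the secreted class and the dimmest 25% of genes 6 of 15 passed (40%). Among secreted hepatocyte serpins it was 3 of 10 (30%), and among dim members 2 of 18 (11.1%). Arrays did not overlap in 16 members, against 35.8%. Members that passed here and also between HFD24 and ND, a comparison with the same ND arrays, were Serpinh1, Serpinb9, Serpina3f, Serpinb6b, Serpinb9c and Serpinb6c. Without the second HFD16 array or the first ND array 5 members passed, and without the third HFD16 array 6. Between HFD24 and HFD16 livers 0 members passed by limma, against 0.0367% of all genes, and 1 member, Serpina9, had an unadjusted p under 0.05, against 9.78% of all genes. Arrays did not overlap in 6 members, against 16.4%. Serpina9 passed there with array weights and without the third HFD24 array. Between PTFC and ND livers 2 members passed, Serpinb6b and Serpinb9, both higher (4.65%), against 2.33% of all genes, 1.04% higher and 1.29% lower. Arrays did not overlap in 12 members, against 22.1%. This count was 0 without the third PTFC array or the first ND array, 1 without the first or the second PTFC array or the third ND array, 4 without the first or the second HFD16 array and 5 without the third HFD24 array.

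**Figure D1:**
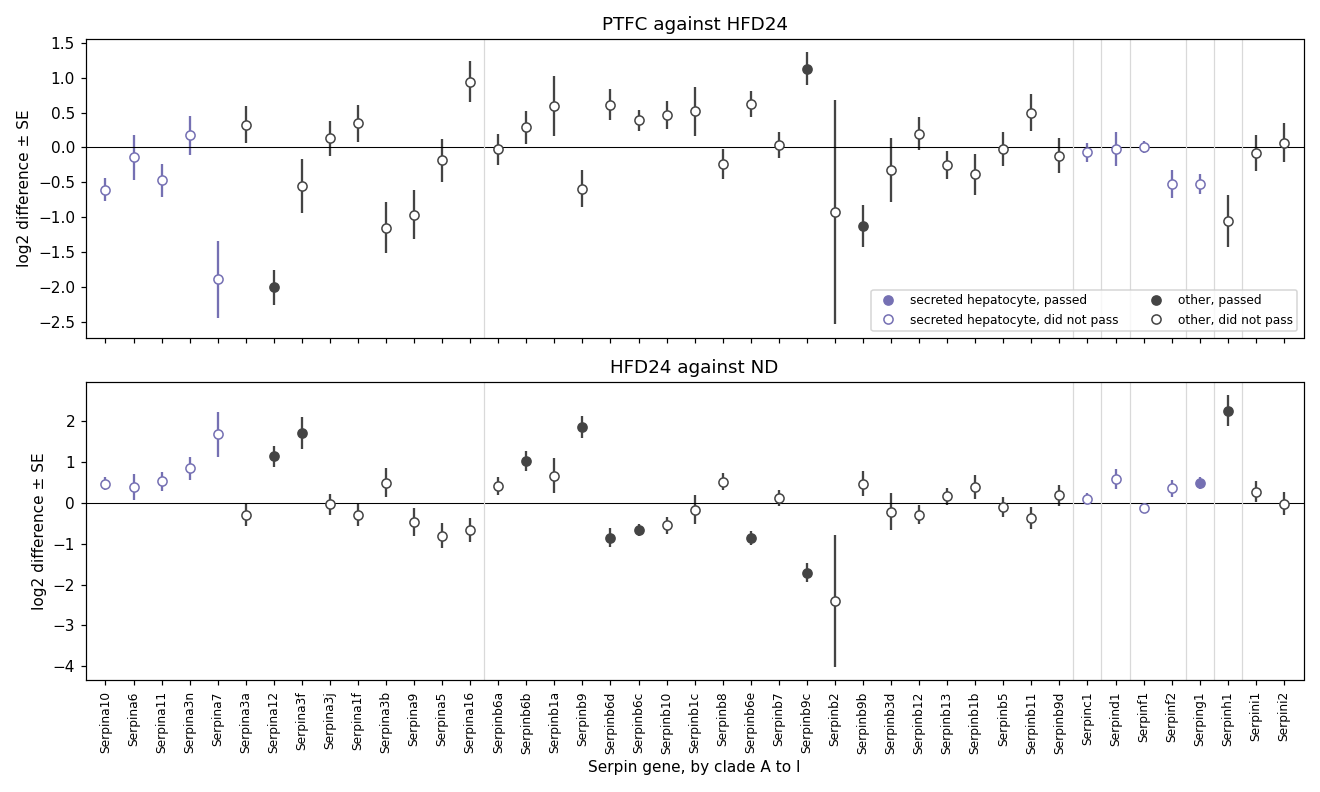
Log2 differences (± SE, n = 3 arrays per group) of the 43 serpins, ordered by clade, for PTFC against HFD24 above and HFD24 against ND below. Filled points passed at an adjusted p under 0.05: 3 in the upper panel, with Serpina12 lowest at log2 -2.01, and 10 in the lower, with Serpinh1 highest at log2 2.25.

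The secreted hepatocyte serpins stood mostly above ND levels in livers on the high-fat diet alone, though few passed. Between HFD24 and ND livers 9 of the 10 had a positive difference, against 8522 of all 19084 genes. The differences ran from log2 -0.14 to 1.68, with a median of 0.48, against -0.06 over all genes, but only Serping1 passed. Between HFD16 and the same ND livers 9 of 10 were positive, against 9088 of all genes, with a median of log2 0.41, against -0.03 over all genes. There 2 passed as higher and 1 as lower, against 10% and 8.11% of all genes. Between PTFC and HFD24 livers 8 of 10 differences were negative, with a median of log2 -0.31, against 0.01 over all genes, and 0 passed by limma, while 4 of the 10 had an unadjusted p under 0.05, against 24.4% of all genes. That balance depended on the scaling. On the deposited scale, where the median of all genes was 0.24, 6 of 10 were negative with a median of -0.16. With median centring, where the median of all genes was -0.13, 10 of 10 were negative with a median of -0.53. No p was computed for the class. The other 33 members had medians of log2 -0.02 between PTFC and HFD24 livers and -0.04 between HFD24 and ND livers. In whole liver, fewer cells of a type and less RNA per cell cannot be told apart. On the deposited intensity scale, whose array medians differed between groups as given above, the hepatocyte markers summed to 1558000 to 1771000 in PTFC livers, 1347000 to 1543000 in HFD24 livers, 1326000 to 1479000 in HFD16 livers and 1561000 to 1622000 in ND livers. On the normalized scale their median difference was log2 -0.11 between HFD24 and ND livers, where Tat was lower and passed alone of the 6, and log2 0.18 between PTFC and HFD24 livers, where 0 passed by limma. Their part in these differences was not tested.

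The thrombin inhibitors passed in no comparison in the main setting. Serpinc1, antithrombin, which inhibits thrombin and factor Xa, had a mean level of 17.90 ± 0.06 in PTFC livers, 17.97 ± 0.06 in HFD24 livers, 17.93 ± 0.23 in HFD16 livers and 17.86 ± 0.26 in ND livers (SD, n = 3 each). Its differences were log2 -0.07 ± 0.13 between PTFC and HFD24 livers and 0.10 ± 0.13 between HFD24 and ND livers, and its other, dimmer probe gave log2 0.21 between PTFC and HFD24 livers and 0.03 between HFD24 and ND livers. Serpind1, heparin cofactor II, another thrombin inhibitor, had a mean level of 14.12 ± 0.19 in PTFC livers, 14.14 ± 0.23 in HFD24 livers, 13.93 ± 0.55 in HFD16 livers and 13.56 ± 0.25 in ND livers. Its difference between HFD24 and ND livers was log2 0.58 ± 0.24 (adjusted p = 0.112), and arrays of these groups did not overlap. Serpind1 passed there, and between HFD16 and ND livers, with array weights and without the second HFD16 array. Serpinc1 passed between HFD16 and ND livers with array weights.

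Serpinf2, alpha-2-antiplasmin, the main inhibitor of plasmin, read 17.02, 16.89 and 16.84 on the PTFC arrays, 17.63, 17.56 and 17.12 on the HFD24 arrays, 17.83, 17.53 and 17.87 on the HFD16 arrays and 17.34, 17.40 and 16.51 on the ND arrays. The HFD16 arrays lay above all ND and PTFC arrays, and the third ND array lay lowest of all. It was 1.58-fold higher in HFD16 than in ND livers (log2 0.66 ± 0.21, adjusted p = 0.0426), a call lost in 12 of 20 alternatives, at adjusted p of up to 0.128. Its difference between PTFC and HFD24 livers was log2 -0.52 ± 0.21 (adjusted p = 0.139), which passed without the third ND array.

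Serpina10, the protein Z-dependent inhibitor of factor Xa, read 15.28, 15.45 and 15.18 on the PTFC arrays, 15.95, 15.82 and 15.96 on the HFD24 arrays, 15.74, 16.23 and 16.28 on the HFD16 arrays and 15.54, 15.64 and 15.14 on the ND arrays. All HFD24 and HFD16 arrays lay above all PTFC and ND arrays. The difference passed between HFD16 and ND livers, at 1.56-fold (log2 0.64 ± 0.17, adjusted p = 0.0204). It did not pass without the second or the third HFD16 array or the first ND array, where adjusted p reached 0.0881. Between HFD24 and ND livers it was log2 0.47 ± 0.17 (adjusted p = 0.0699), which passed without the first HFD16 array. Between PTFC and HFD24 livers it was log2 -0.61 ± 0.17 (adjusted p = 0.0512), which passed in 6 of 20 alternatives, at adjusted p down to 0.0264.

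Serping1, which inhibits the complement proteases C1r and C1s and plasma kallikrein, read 16.78, 16.54 and 16.49 on the PTFC arrays, 16.84, 17.25 and 17.27 on the HFD24 arrays, 16.75, 17.07 and 16.85 on the HFD16 arrays and 16.54, 16.54 and 16.82 on the ND arrays. Each HFD24 array was above each PTFC and each ND array, the closest pair being the first HFD24 and the third ND array. It was higher in HFD24 than in ND livers, at 1.4-fold (log2 0.49 ± 0.14, adjusted p = 0.0332). The call was lost in 6 of 20 alternatives, among them the deposited scale and the fits without the second or the third HFD24 or the first or the second ND array, with adjusted p of up to 0.123. PTFC livers differed from HFD24 livers by log2 -0.52 ± 0.14 (adjusted p = 0.0515), which passed in 5 of 20 alternatives, at adjusted p down to 0.0198.

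Serpinf1, pigment epithelium-derived factor, is a secreted serpin without inhibitory activity that restrains angiogenesis. It read 17.70, 17.79 and 17.74 on the PTFC arrays, 17.66, 17.77 and 17.79 on the HFD24 arrays, 17.49, 17.56 and 17.72 on the HFD16 arrays and 17.88, 17.82 and 17.94 on the ND arrays. The HFD16 arrays were all below the ND arrays, and values of all 4 groups spanned a narrow range. Its difference between HFD16 and ND livers was small and lower in HFD16, log2 -0.29 ± 0.09 (adjusted p = 0.0428), and the call was lost in 15 of 20 alternatives, among them every fit without a HFD16 or ND array. With the replicate number as a block its adjusted p was 0.0555.

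On their brightest probes, the hormone carriers of clade A passed in no comparison in the main setting. Serpina7, thyroxine-binding globulin, read 11.10, 10.83 and 11.74 on the PTFC arrays, 12.84, 11.73 and 14.77 on the HFD24 arrays, 13.14, 12.85 and 13.20 on the HFD16 arrays and 11.36, 11.98 and 10.97 on the ND arrays. The HFD16 arrays lay above every ND and PTFC array, while the second HFD24 array fell within the ND and PTFC ranges and the third HFD24 array was the highest of all. The differences missed the threshold: log2 -1.89 ± 0.55 between PTFC and HFD24 livers (adjusted p = 0.0603), log2 1.68 ± 0.55 between HFD24 and ND livers (adjusted p = 0.0509) and log2 1.63 ± 0.55 between HFD16 and ND livers (adjusted p = 0.0572). The other Serpina7 probe gave log2 -2.48 ± 0.52 between PTFC and HFD24 livers and 1.87 ± 0.52 between HFD24 and ND livers, and with the mean of both probes the adjusted p was 0.0377 and 0.0374. On the brightest probe, the differences between PTFC and HFD24 and between HFD24 and ND livers depended on single HFD24 arrays. Without the second HFD24 array they were -2.58 (adjusted p = 0.0417) and 2.37 (adjusted p = 0.00811), and without the third -1.07 (adjusted p = 0.119) and 0.85 (adjusted p = 0.14). Serpina6, corticosteroid-binding globulin, had a mean level of 15.29 ± 0.58 in PTFC livers, 15.43 ± 0.63 in HFD24 livers, 15.95 ± 0.36 in HFD16 livers and 15.04 ± 0.24 in ND livers, and passed in none of the comparisons in the main setting. Between HFD16 and ND livers, whose arrays did not overlap, its difference was log2 0.91 ± 0.32 (adjusted p = 0.0649). It passed there with median centring, with array weights and without the first PTFC, the third HFD24 or the first HFD16 array.

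Serpina3n, an acute phase serpin of the mouse that inhibits cathepsin G, granzyme B and elastase, read 13.31, 13.66 and 13.60 on the PTFC arrays, 14.03, 13.39 and 12.62 on the HFD24 arrays, 13.10, 12.68 and 13.07 on the HFD16 arrays and 12.25, 12.60 and 12.66 on the ND arrays. All PTFC arrays and all HFD16 arrays lay above all ND arrays, and the HFD24 arrays spread from the ND range to the highest value. No difference passed in the main setting: it was log2 1.02 ± 0.28 between PTFC and ND livers (adjusted p = 0.0761), log2 0.84 ± 0.28 between HFD24 and ND livers (adjusted p = 0.0534) and log2 0.17 ± 0.28 between PTFC and HFD24 livers (adjusted p = 0.752). Between HFD24 and ND livers it passed in 5 of 20 alternatives, with a pseudocount of 32, on the deposited scale, without the dimmest 25% of genes, with array weights and without the third HFD24 array, at adjusted p down to 0.00594. Between PTFC and ND livers it passed in 3 of 20, with array weights and without the first or the third HFD24 array, at adjusted p down to 0.00854. Serpina11, whose role is little known, had a mean level of 13.51 ± 0.25 in PTFC livers, 13.98 ± 0.21 in HFD24 livers, 13.69 ± 0.26 in HFD16 livers and 13.46 ± 0.47 in ND livers, and passed in none of the comparisons in the main setting. With array weights Serpina11 passed between HFD24 and ND and between HFD16 and ND livers, and without the third ND array between HFD24 and ND livers.

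**Figure D2:**
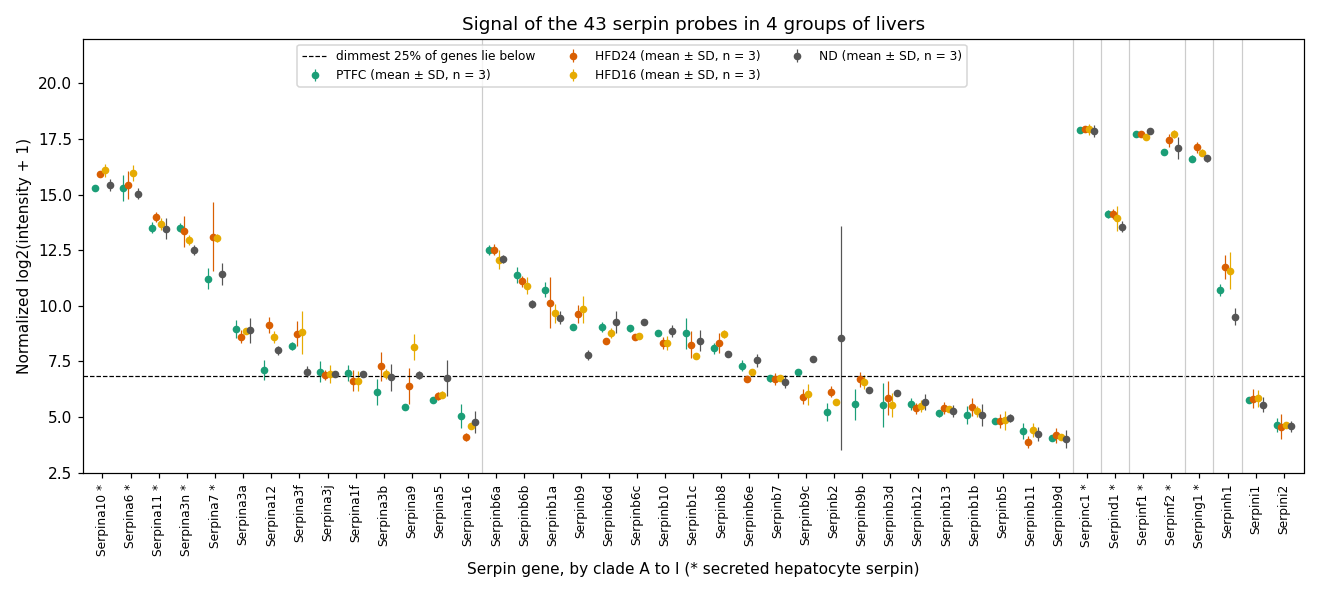
Mean normalized log2(intensity + 1) ± SD (n = 3 arrays per group) of each serpin in PTFC, HFD24, HFD16 and ND livers, by clade, with asterisks on the secreted hepatocyte serpins and a dashed line at 6.84, under which the dimmest 25% of genes lie. The 10 secreted hepatocyte serpins lie above that line and 18 of the other 33 lie below it; signals of different probes are not comparable as RNA amounts.

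Serpinh1, also called Hsp47, is a serpin of the endoplasmic reticulum that inhibits no protease and holds procollagen in its folded state until it leaves for secretion. It read 10.39, 10.91 and 10.81 on the PTFC arrays, 11.43, 11.47 and 12.38 on the HFD24 arrays, 10.88, 12.51 and 11.36 on the HFD16 arrays and 9.13, 9.48 and 9.90 on the ND arrays. Every PTFC, HFD24 and HFD16 array lay above every ND array, and every PTFC array lay below every HFD24 array. Serpinh1 was higher in HFD24 than in ND livers, at 4.76-fold (log2 2.25 ± 0.37, adjusted p = 0.00195). In HFD16 livers it was 4.22-fold higher than in ND livers (log2 2.08 ± 0.37, adjusted p = 0.00422), and both differences passed under each of the 20 alternatives. Between PTFC and HFD24 livers the difference was log2 -1.05 ± 0.37 (adjusted p = 0.106), which passed in 2 of 20 alternatives, median centring (adjusted p = 0.0413) and without the second HFD16 array (adjusted p = 0.0429). Between PTFC and ND livers it was log2 1.20 ± 0.37 (adjusted p = 0.113), which passed with array weights and without the second HFD16 array.

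Among 12 measured genes of the list of collagens and their folding enzymes, 5 were higher and 1 lower in HFD24 than in ND livers, against 9.97% of all genes higher and 8.28% lower, with a median of log2 0.72, against -0.06 over all genes. Col1a2, a chain of type I collagen, was log2 3.69 ± 0.54 higher (adjusted p = 0.00111), Col3a1, type III collagen, 3.31 ± 0.43 (adjusted p = 0.000646), and Col4a1, a basement membrane collagen, 1.57 ± 0.25 (adjusted p = 0.00156). Col1a1, the other chain of type I collagen, was lower on its probe, at log2 -0.91 ± 0.22 (adjusted p = 0.0129). Col1a2 was lower in PTFC than in HFD24 livers, at log2 -2.54 ± 0.54 (adjusted p = 0.0238), as was Col3a1, at log2 -2.14 ± 0.43 (adjusted p = 0.023). In that comparison the list median was log2 -0.37, against 0.01 over all genes, and Col5a1 (log2 -0.78, adjusted p = 0.162) and the lysyl hydroxylase Plod1 (log2 0.37, adjusted p = 0.185) did not pass. Of the 10 stellate cell and fibroblast markers, some of which are in this list, 8 were higher and 1 lower in HFD24 than in ND livers, against the same shares of all genes. Between PTFC and HFD24 livers 3 of these markers were lower in PTFC, against 3.04% of all genes. Their summed deposited intensity ran from 100100 to 160600 in PTFC livers, 113100 to 140600 in HFD24 livers, 83330 to 156200 in HFD16 livers and 42520 to 77680 in ND livers, and their part in the Serpinh1 difference was not tested.

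**Figure D3:**
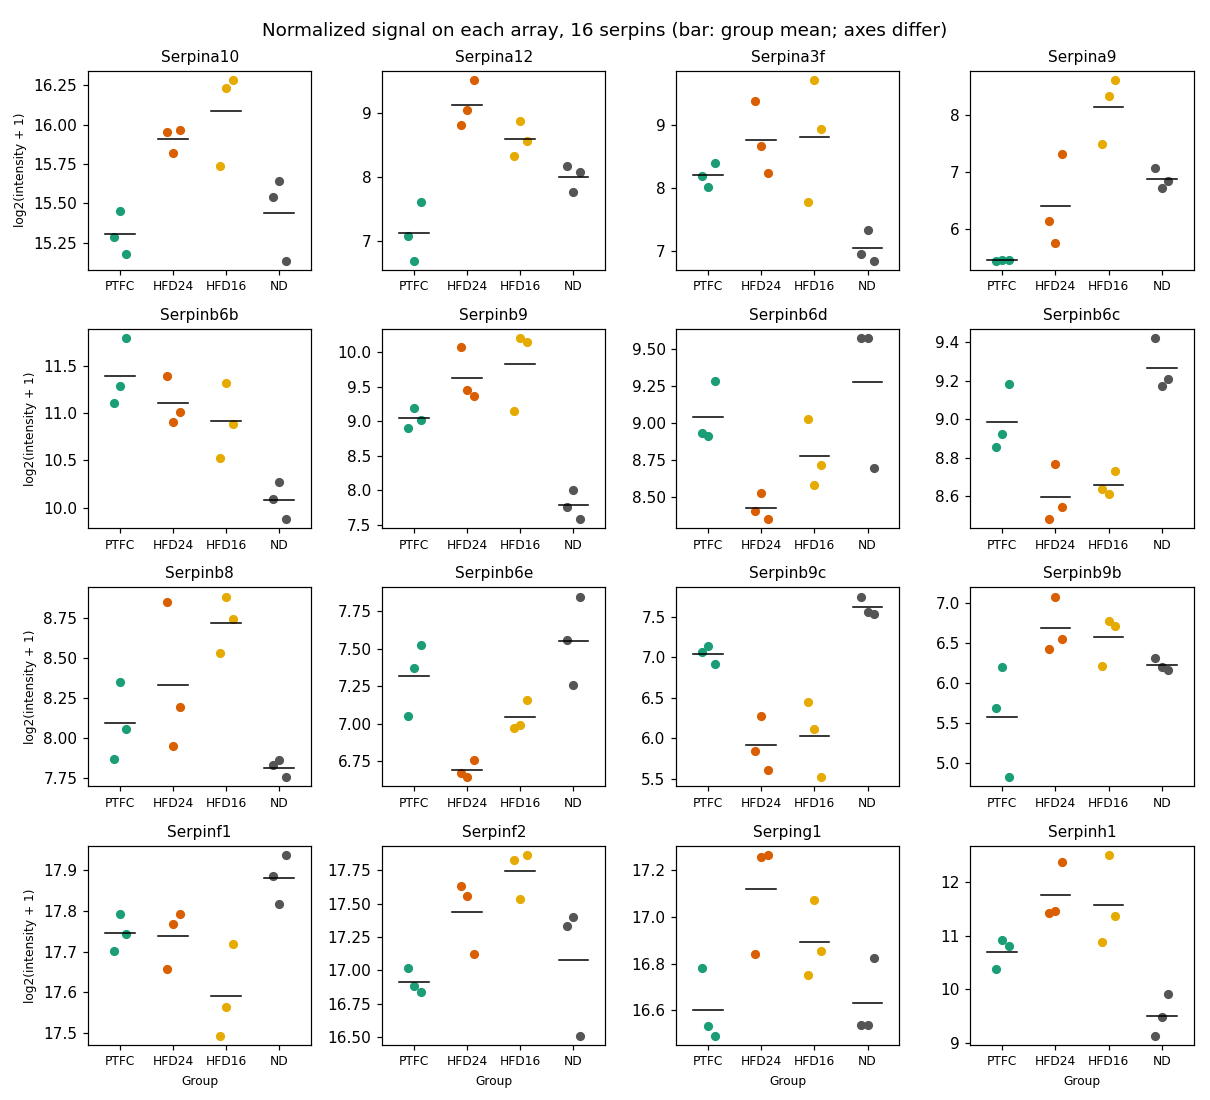
Normalized log2(intensity + 1) on each of the 12 arrays for the 16 serpins that passed in at least 1 comparison, with PTFC, HFD24, HFD16 and ND from left to right, a point per array and a bar at the group mean (vertical axes differ between panels). The 3 PTFC points of Serpina12 lie below all other arrays, and the ND points of Serpinh1, Serpinb9 and Serpina3f lie below those of the other groups.

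Clade B held the intracellular inhibitors of leukocyte proteases, and 6 of its 21 members passed between HFD24 and ND livers (28.6%), against 18.3% of all genes. Of these 6, 2 were higher and 4 lower, against 9.97% of all genes higher and 8.28% lower. Serpinb9 blocks granzyme B and is made by cytotoxic lymphocytes and by cells exposed to them. It read 8.91, 9.19 and 9.02 on the PTFC arrays, 10.07, 9.45 and 9.37 on the HFD24 arrays, 9.15, 10.20 and 10.15 on the HFD16 arrays and 7.75, 8.01 and 7.59 on the ND arrays. The ND arrays lay below all other arrays, and the PTFC arrays lay between the ND and the HFD24 arrays. Serpinb9 was higher in HFD24 than in ND livers, at 3.61-fold (log2 1.85 ± 0.27, adjusted p = 0.00112). In HFD16 livers it was 4.15-fold higher than in ND livers (log2 2.05 ± 0.27, adjusted p = 0.00102). Both calls passed under each of 20 alternatives. It was also 2.39-fold higher in PTFC than in ND livers (log2 1.26 ± 0.27, adjusted p = 0.031), a call lost in 8 of 20 alternatives. These were each fit without 1 PTFC or 1 ND array, median centring and the replicate block, with adjusted p of up to 0.123. PTFC livers differed from HFD24 livers by log2 -0.59 ± 0.27 (adjusted p = 0.198).

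Serpinb9b, which in the mouse inhibits granzyme M, read 5.69, 6.20 and 4.82 on the PTFC arrays, 6.44, 7.09 and 6.56 on the HFD24 arrays, 6.22, 6.78 and 6.72 on the HFD16 arrays and 6.32, 6.20 and 6.17 on the ND arrays. The first and the third PTFC arrays lay below all other arrays, and the second fell in the ND range. It was 2.18-fold lower in PTFC than in HFD24 livers (log2 -1.12 ± 0.30, adjusted p = 0.0456). Its signal is in the dimmest 25% of genes, and the call was lost in 11 of 19 alternatives, among them the fits without the first or the third PTFC array and without any HFD24 array, at adjusted p of up to 0.259.

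Serpinb9c ran the other way. It read 7.07, 7.14 and 6.91 on the PTFC arrays, 5.85, 6.28 and 5.61 on the HFD24 arrays, 6.45, 6.11 and 5.52 on the HFD16 arrays and 7.75, 7.57 and 7.54 on the ND arrays, with the ND arrays highest, the PTFC arrays next and the HFD24 and HFD16 arrays lowest, without overlap. The gene was 3.27-fold lower in HFD24 than in ND livers (log2 -1.71 ± 0.23, adjusted p = 0.000827). In HFD16 livers it was 3.02-fold lower than in ND livers (log2 -1.59 ± 0.23, adjusted p = 0.00183). Both calls passed under each of 19 alternatives. It was 2.19-fold higher in PTFC than in HFD24 livers (log2 1.13 ± 0.23, adjusted p = 0.0231). That difference did not pass without any single PTFC array or without the first or the third HFD24 array, at adjusted p of up to 0.0996. Its signal, too, is in the dimmest 25% of genes.

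The Serpinb6 branch is expanded in the mouse and includes Serpinb6a, an inhibitor of cathepsin G. Serpinb6a had a mean level of 12.50 ± 0.21 in PTFC livers, 12.53 ± 0.25 in HFD24 livers, 12.07 ± 0.43 in HFD16 livers and 12.11 ± 0.17 in ND livers and passed in no comparison. Serpinb6b read 11.11, 11.28 and 11.79 on the PTFC arrays, 11.39, 10.90 and 11.01 on the HFD24 arrays, 10.53, 11.32 and 10.89 on the HFD16 arrays and 10.09, 10.28 and 9.88 on the ND arrays. The ND arrays were below all others and the third PTFC array was highest. Serpinb6b was 2.48-fold higher in PTFC than in ND livers (log2 1.31 ± 0.24, adjusted p = 0.0157). In HFD24 livers it was 2.03-fold higher than in ND livers (log2 1.02 ± 0.24, adjusted p = 0.0105). In HFD16 livers it was 1.78-fold higher than in ND livers (log2 0.83 ± 0.24, adjusted p = 0.0294). The PTFC call was lost without the third PTFC or the first ND array, at adjusted p of up to 0.0743, and the HFD24 call without the first HFD24 array (adjusted p = 0.0517). The HFD16 call was lost without the second or the third HFD16 or the first or the third ND array, at adjusted p of up to 0.109. Its difference between PTFC and HFD24 livers was log2 0.29 ± 0.24 (adjusted p = 0.489).

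The other 3 members of the branch were lower in HFD24 than in ND livers. Serpinb6c read 8.86, 8.92 and 9.18 on the PTFC arrays, 8.48, 8.77 and 8.54 on the HFD24 arrays, 8.64, 8.61 and 8.73 on the HFD16 arrays and 9.42, 9.18 and 9.21 on the ND arrays, with all HFD24 and HFD16 arrays below all PTFC and ND arrays. It was 1.59-fold lower in HFD24 (log2 -0.67 ± 0.15, adjusted p = 0.00915) and 1.52-fold lower in HFD16 (log2 -0.61 ± 0.15, adjusted p = 0.017) than in ND livers, but not without the first ND array (adjusted p = 0.0504 for HFD24 and up to 0.0795 for HFD16) or, for HFD16, without its second array.

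Serpinb6d read 8.94, 8.91 and 9.29 on the PTFC arrays, 8.41, 8.53 and 8.35 on the HFD24 arrays, 9.03, 8.58 and 8.72 on the HFD16 arrays and 9.57, 9.58 and 8.70 on the ND arrays, and the HFD24 arrays were below all others. It was 1.81-fold lower in HFD24 than in ND livers (log2 -0.85 ± 0.23, adjusted p = 0.0214), a call lost without the first or the third HFD24 array or the first or the second ND array, at adjusted p of up to 0.102. Serpinb6e read 7.05, 7.37 and 7.53 on the PTFC arrays, 6.68, 6.64 and 6.76 on the HFD24 arrays, 6.97, 6.99 and 7.16 on the HFD16 arrays and 7.56, 7.26 and 7.85 on the ND arrays, and again the HFD24 arrays were the lowest. The gene was 1.81-fold lower in HFD24 than in ND livers (log2 -0.86 ± 0.18, adjusted p = 0.00615), under each of 20 alternatives. The differences between PTFC and HFD24 livers of Serpinb6c, Serpinb6d and Serpinb6e were log2 0.39, 0.62 and 0.62. Adjusted p was 0.134, 0.119 and 0.0585, so none passed in the main setting. Serpinb6e passed there in 4 of 20 alternatives, at adjusted p down to 0.0243, and Serpinb6d passed without the third ND array. The arrays of PTFC and HFD24 livers did not overlap in Serpinb6c, Serpinb6d or Serpinb6e, as in 31.1% of all genes. The probe sequences were not used here, and how far each probe separates near-identical copies is uncertain.

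In RefSeq's order of GRCm38.p6, these genes are neighbours on chromosome 13, where 12 of 17 listed serpin genes are members. Along it, Serpinb6b and Serpinb9, next to each other, were higher in HFD24 than in ND livers, while Serpinb9c, Serpinb6d, Serpinb6e and Serpinb6c, farther along the same row, were lower. The row did not divide by position. Serpinb1b and Serpinb9d, on either side of Serpinb9c, had log2 0.37 and 0.18, and Serpinb6a, the last of the row, 0.42. Before Serpinb6b, Serpinb1a had log2 0.66 and Serpinb1c -0.17, and Serpinb9b, after Serpinb9, had 0.46. None of these passed there. Serpinb1a, the leukocyte elastase inhibitor at the start of the row, had a mean level of 10.73 ± 0.33 in PTFC livers, 10.13 ± 1.15 in HFD24 livers, 9.67 ± 0.42 in HFD16 livers and 9.47 ± 0.28 in ND livers, with no call in the main setting. Its difference between PTFC and ND livers was log2 1.26 ± 0.43 (adjusted p = 0.145). The HFD24 arrays read 11.08, 10.47 and 8.85. Without the third of them Serpinb1a passed between HFD24 and ND and between PTFC and ND livers. Chromosome 12 held 13 members of 28 listed serpin genes, all of clade A, and chromosome 1 held 10 of 14.

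**Figure D4:**
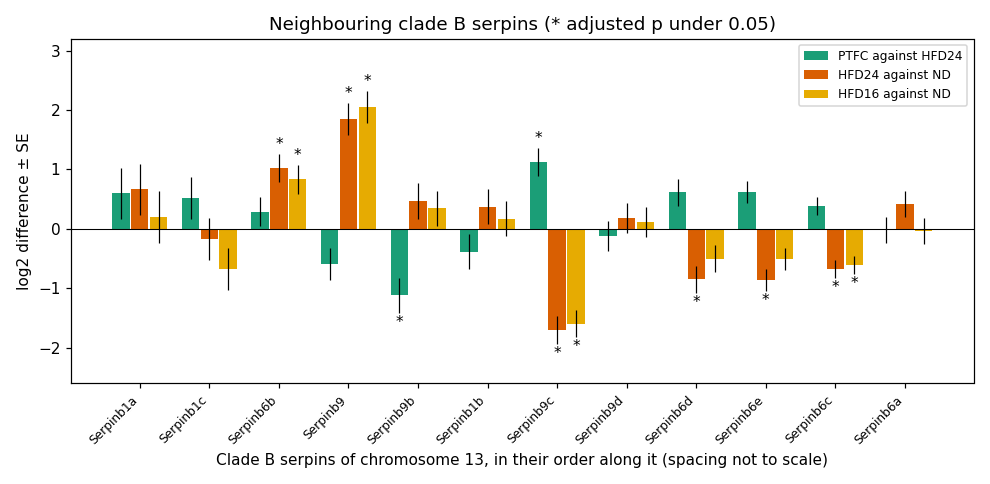
Log2 differences (± SE, n = 3 arrays per group) of the 12 measured clade B serpins of chromosome 13 in their order along it, for PTFC against HFD24, HFD24 against ND and HFD16 against ND, with asterisks at an adjusted p under 0.05. Serpinb6b and Serpinb9 stand above 0 and Serpinb9c, Serpinb6d, Serpinb6e and Serpinb6c below it in both comparisons with ND.

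Serpinb8, an intracellular serpin that inhibits furin in humans and lies on chromosome 1, read 7.87, 8.35 and 8.06 on the PTFC arrays, 8.85, 7.95 and 8.19 on the HFD24 arrays, 8.53, 8.89 and 8.74 on the HFD16 arrays and 7.83, 7.86 and 7.75 on the ND arrays. All HFD24 and HFD16 arrays were above the ND arrays. It was 1.87-fold higher in HFD16 than in ND livers (log2 0.90 ± 0.22, adjusted p = 0.0141), a call that missed the threshold on the deposited scale and without the second HFD16 array, at adjusted p of up to 0.0525. Between HFD24 and ND livers its difference was log2 0.52 ± 0.22 (adjusted p = 0.114).

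Serpinb2, an inhibitor of plasminogen activators, had 1 array far from the rest. Its deposited intensity was 20905 on the second ND array, against 35.0 to 71.9 on the other 11 arrays. The difference between HFD24 and ND livers was log2 -2.40 ± 1.61 (adjusted p = 0.323), and without that array it had the opposite sign, log2 0.49 ± 0.26 (adjusted p = 0.254).

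Markers of macrophages, of T and NK cells and of endothelium also differed between the groups. Of 10 macrophage markers all 10 were higher in HFD24 than in ND livers, against 9.97% of all genes. Between PTFC and HFD24 livers 1 of them was lower in PTFC, against 3.04% of all genes. The deposited intensities of the macrophage markers summed to 60760 to 82900 in PTFC livers, 104500 to 165300 in HFD24 livers, 33910 to 144900 in HFD16 livers and 16770 to 37200 in ND livers. Of 7 T and NK cell markers 3 were higher in HFD24 than in ND livers and 2 lower in PTFC than in HFD24 livers, against the same shares. Their sums on the deposited scale were 4528 to 4922 in PTFC livers, 5533 to 7051 in HFD24 livers, 4365 to 10860 in HFD16 livers and 3925 to 4685 in ND livers. Of 7 endothelial markers 4 were higher in HFD24 than in ND livers, and 0 passed between PTFC and HFD24 livers by limma. Of 6 measured neutrophil markers 2 were higher in HFD24 than in ND livers, with a median of log2 0.03. In PTFC livers 1 of them was lower than in HFD24 livers. Of 5 measured cholangiocyte markers 0 were higher and 2 lower in HFD24 than in ND livers, against 8.28% of all genes lower. Between PTFC and HFD24 livers 1 was higher in PTFC, against 2.96% of all genes. No marker was at 0 on all arrays, and the part of these cells in the clade B differences was not tested.

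Of 15 measured leukocyte and mast cell proteases, 3 were higher and 4 lower in HFD24 than in ND livers, against 9.97% of all genes higher and 8.28% lower, with a list median of log2 0.52. The lysosomal protease of antigen-presenting cells Ctss was higher by log2 3.90 ± 0.69 (adjusted p = 0.00242), Gzma, granzyme A, by 1.75 ± 0.43 (adjusted p = 0.0144), and Ctsb, cathepsin B, by 0.51 ± 0.13 (adjusted p = 0.0178). Tpsab1, a mast cell tryptase, was lower, at log2 -1.09 ± 0.26 (adjusted p = 0.0114). Between PTFC and HFD24 livers 1 of the 15 passed, against 6% of all genes. It was Tpsab1, higher in PTFC livers by log2 1.22 ± 0.26 (adjusted p = 0.0238), and the list median was log2 -0.29. There Gzma had log2 -1.33 (adjusted p = 0.082), Tpsb2, another tryptase, 0.85 (adjusted p = 0.0566), and the mast cell protease Mcpt2 0.56 (adjusted p = 0.12).

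Serpina12, vaspin, is known as a hormone of adipose tissue and inhibits kallikrein 7. It read 7.07, 6.68 and 7.61 on the PTFC arrays, 8.81, 9.06 and 9.52 on the HFD24 arrays, 8.33, 8.87 and 8.56 on the HFD16 arrays and 8.17, 7.75 and 8.07 on the ND arrays. The PTFC arrays lay below every other array, the HFD24 arrays lay above every ND array, and the HFD16 arrays lay above the ND arrays and overlapped the HFD24 range. Serpina12 was 4.02-fold lower in PTFC than in HFD24 livers (log2 -2.01 ± 0.25, adjusted p = 0.0061), the largest difference in that comparison among the 43 members on their brightest probes. The other Serpina7 probe, at log2 -2.48, differed by more. Serpina12 passed there under each of the 20 alternatives, with log2 -2.25 to -1.63 and adjusted p from 0.00215 to 0.0245. It was higher in HFD24 than in ND livers, at 2.19-fold (log2 1.13 ± 0.25, adjusted p = 0.00817), which passed in 19 of 20 alternatives and not on the deposited scale (adjusted p = 0.0576). Between PTFC and ND livers the difference was log2 -0.88 ± 0.25 (adjusted p = 0.084), which passed in 1 of 20 alternatives, array weights (adjusted p = 0.0203). On the deposited intensity scale, whose array medians differed between groups, adipocyte markers, 4 of 5 measured, summed to 887.7 to 1057 in PTFC livers, 426.6 to 662 in HFD24 livers, 474.6 to 3496 in HFD16 livers and 650.1 to 1161 in ND livers. Of these 4 markers, 0 passed between HFD24 and ND livers by limma. Only Retn was higher in PTFC than in HFD24 livers (log2 0.75, adjusted p = 0.0493), against 2.96% of all genes, while Plin1, Lep and Adipoq did not pass.

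Serpina3f, of the expanded Serpina3 branch of the mouse, read 8.19, 8.02 and 8.39 on the PTFC arrays, 9.37, 8.66 and 8.24 on the HFD24 arrays, 7.78, 9.71 and 8.94 on the HFD16 arrays and 6.96, 7.33 and 6.85 on the ND arrays. The ND arrays lay below all other arrays, and the HFD24 and HFD16 arrays spread widely. It was higher in HFD24 than in ND livers, at 3.27-fold (log2 1.71 ± 0.39, adjusted p = 0.01), a call that did not pass without the first HFD24 array (adjusted p = 0.0509), and 3.39-fold higher in HFD16 than in ND livers (log2 1.76 ± 0.39, adjusted p = 0.0104), under each of 20 alternatives. Its difference between PTFC and HFD24 livers was log2 -0.55 ± 0.39 (adjusted p = 0.418). Of the same branch, Serpina3a, Serpina3b and Serpina3j passed in no comparison.

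Serpina9, known in humans as centerin from germinal centre B cells, read 5.44, 5.44 and 5.44 on the PTFC arrays, 6.15, 5.75 and 7.32 on the HFD24 arrays, 7.50, 8.34 and 8.63 on the HFD16 arrays and 7.07, 6.72 and 6.85 on the ND arrays. The HFD16 arrays were the highest and the PTFC arrays the lowest, and its mean signal is in the dimmest 25% of genes. It was 2.43-fold higher in HFD16 than in ND livers (log2 1.28 ± 0.35, adjusted p = 0.025), but not on the deposited scale or without the second or the third HFD16 or the first or the second ND array, at adjusted p of up to 0.108. Between HFD24 and HFD16 livers the difference was log2 -1.75 ± 0.35 (adjusted p = 0.149) and between PTFC and ND livers log2 -1.44 ± 0.35 (adjusted p = 0.0509). These passed in 2 and 5 of 19 alternatives, at adjusted p down to 0.0142 and 0.0119.

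The dimmest 25% of genes, with a mean log2 level under 6.84, included 18 members, 5 of clade A, 11 of clade B and both of clade I. Of these 18, 1 passed between HFD24 and ND livers, 2 between PTFC and HFD24 livers and 2 between HFD16 and ND livers, against 18.3%, 6% and 18.1% of all genes in these comparisons. These shares cover bright and dim genes alike. A fit without the dimmest 25% of genes called 3238, 1062 and 3275 genes, against 3483, 1145 and 3462 with them. No share was computed for dim genes alone, so the counts do not show how dim members compare with other dim genes. Serpini1, neuroserpin, which inhibits tissue plasminogen activator in the brain, had a mean level of 5.75 ± 0.09 in PTFC livers, 5.83 ± 0.44 in HFD24 livers, 5.84 ± 0.39 in HFD16 livers and 5.56 ± 0.35 in ND livers, and Serpini2 had one of 4.63 ± 0.31 in PTFC livers, 4.56 ± 0.55 in HFD24 livers, 4.64 ± 0.09 in HFD16 livers and 4.59 ± 0.25 in ND livers, and neither passed in any comparison. The 27 members that passed in no comparison had differences between HFD24 and ND livers of -2.40 to 1.68 and between PTFC and HFD24 livers of -1.89 to 0.94 on the log2 scale.

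Of 14 measured coagulation and complement proteases, which the secreted serpins restrain, 1 passed between HFD24 and ND livers, against 18.3% of all genes. It was C1ra, a protease of the first complement component, higher by log2 0.61 ± 0.14 (adjusted p = 0.0109), and the median was log2 -0.04. F11, factor XI, had log2 -0.61 (adjusted p = 0.0517), Masp1, a protease of the lectin pathway, -0.46 (adjusted p = 0.194), and F12, factor XII, -0.41 (adjusted p = 0.232). Between PTFC and HFD24 livers 0 of 14 passed by limma, against 6% of all genes, with a median of log2 0.02, and C1ra (log2 -0.51, adjusted p = 0.0509) and Klkb1, plasma kallikrein (log2 -0.41, adjusted p = 0.149), had the smallest unadjusted p.

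Of 8 measured genes of fibrinolysis, Plaur, the receptor of urokinase, was higher by log2 2.56 ± 0.26 in HFD24 than in ND livers (adjusted p = 0.000201) and Plau, urokinase, lower at log2 -0.68 ± 0.22 (adjusted p = 0.0486). In PTFC livers, against HFD24 livers, Plaur was lower at log2 -1.76 ± 0.26 (adjusted p = 0.00979) and Plau higher by 0.91 ± 0.22 (adjusted p = 0.0346). The median of the list was log2 0.01 between PTFC and HFD24 livers and -0.02 between HFD24 and ND livers. Plasminogen and histidine-rich glycoprotein, Plg and Hrg, passed in neither.

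Of 23 measured inhibitors outside the serpin family, 5 were higher and 0 lower in HFD24 than in ND livers, against 9.97% of all genes higher and 8.28% lower, with a list median of log2 0.11. Between PTFC and HFD24 livers 2 were lower and 0 higher, against 3.04% of all genes lower and 2.96% higher, with a list median of log2 -0.11. Wfdc2, a whey acidic protein domain inhibitor, was higher by log2 2.68 ± 0.24 (adjusted p = 8.63e-05), Timp1, an inhibitor of matrix metalloproteinases, by 6.26 ± 0.65 (adjusted p = 0.000216), Slpi, an inhibitor of neutrophil elastase, by 4.56 ± 0.52 (adjusted p = 0.000299) and Tfpi, the tissue factor pathway inhibitor, by 1.28 ± 0.19 (adjusted p = 0.00131). In PTFC livers, against HFD24 livers, Timp1 was lower at log2 -3.33 ± 0.65 (adjusted p = 0.0211) and Slpi at log2 -2.51 ± 0.52 (adjusted p = 0.0231).

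Of 11 measured acute phase genes, 5 were higher in HFD24 than in ND livers, against 9.97% of all genes, with a median of log2 0.64. In PTFC livers 3 were lower than in HFD24 livers, against 3.04% of all genes, with a median of log2 -0.34. Lcn2, lipocalin 2, was higher by log2 5.94 ± 0.61 in HFD24 livers (adjusted p = 0.000201), Steap4, a metalloreductase, by 2.03 ± 0.23 (adjusted p = 0.000288) and Il1rn, the interleukin 1 receptor antagonist, by 1.07 ± 0.21 (adjusted p = 0.00411). In PTFC livers Steap4 (log2 -1.29 ± 0.23, adjusted p = 0.0178), Il1rn (log2 -0.85 ± 0.21, adjusted p = 0.035) and Lcn2 (log2 -2.39 ± 0.61, adjusted p = 0.0406) were lower than in HFD24 livers. The acute phase serpin Serpina3n passed in neither comparison in the main setting.

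**Figure D5:**
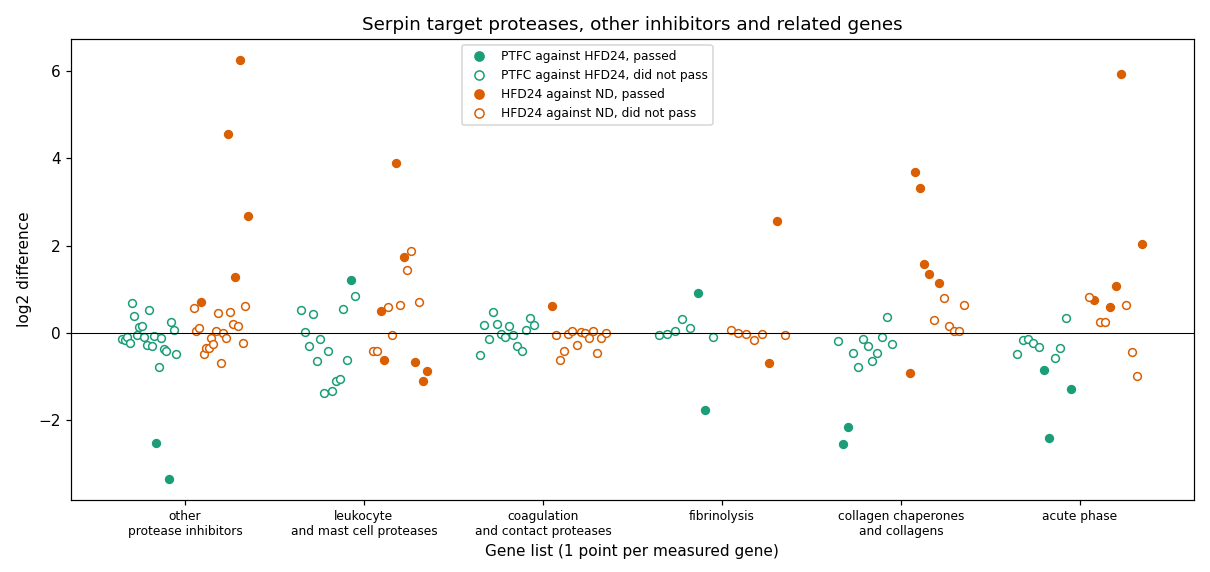
Log2 difference of each measured gene of 6 lists related to serpins, in PTFC against HFD24 and HFD24 against ND livers, with filled points for an adjusted p under 0.05. Of the 23 inhibitors outside the serpin family, 5 passed above 0 between HFD24 and ND and 2 below 0 between PTFC and HFD24.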

How the data were processed

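Per the labels' protocols, Trizol extracts of liver were amplified and coupled to Cy5. The authors deposited linear intensity values, 26423 probes on each of 12 arrays, whose background correction and scaling are not given in the sources used here. Among these values 0.134% were 0 or below and were set to 0. Log2(intensity + 1) of the deposited values was quantile normalized over all probes. The platform annotation gave 21876 probes 1 gene symbol and left 4547 unnamed here; no column of the table was left unused (0). For each of 19084 genes the probe of highest mean was kept. A model of 4 group means over the 12 arrays was fitted in R 4.3.3 (limma 3.58.1, eBayes with a trend), and contrasts were tested two-sided with Benjamini-Hochberg adjustment over all genes of a comparison, and the fit was tested on simulated data. Detection, saturation and batch information was not used here. Replicate numbers, whose meaning the labels do not give, were checked for pairing: the deviations from the group means of all 3 same-numbered pairs of HFD16 and ND arrays correlated at 0.105 to 0.147, and those of the 6 differently numbered pairs at -0.11 to -0.0337. No other 2 groups had all same-numbered pairs over 0.1. Across all groups, differently numbered pairs reached 0.261, with 10 of 36 over 0.1, so these correlations do not establish pairing. Promoters and gene order came from RefSeq's GRCm38.p6.

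Every member was accounted for: those that passed in a comparison are given on all 12 arrays, and the secreted hepatocyte serpins by group means. Of each related list, up to 4 genes of smallest p were named per comparison. Serpinb2 and Serpinb1a were named after their values were seen, as were the Serpinb6a and clade I levels. The members and lists were chosen with earlier results of these data known. Alternatives changed the pseudocount (32), scaling, filter on dim genes, variance trend, array weights, probe summary, replicate block and the arrays included. RefSeq listed 69 mouse genes under the naming rule, and those without a matched probe, such as the alpha-1-antitrypsin copies, are not analysed here.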

Additional observations from a re-analysis of the deposited data

How the results depend on the processing

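The numbers of serpins past the threshold depended on the arrays and on how they were weighted. Leaving out 1 array at a time gave 7 to 13 members for HFD24 against ND, 1 to 9 for PTFC against HFD24, 5 to 13 for HFD16 against ND, 0 to 1 for HFD24 against HFD16 and 0 to 5 for PTFC against ND, and over all genes 1734 to 4939, 11 to 1973, 1339 to 4516, 3 to 10 and 58 to 658. Median centring gave 8 members for PTFC against HFD24 (main 3) and 1 for PTFC against ND (main 2). Array weights, which ranged from 0.272 for the third ND array to 4.59 for the third HFD16 array, gave 7, 23, 1 and 7 members for PTFC against HFD24, HFD16 against ND, HFD24 against HFD16 and PTFC against ND (main 3, 11, 0 and 2). Over all genes array weights gave 6044, 1747, 9116, 88 and 2308 calls for HFD24 against ND, PTFC against HFD24, HFD16 against ND, HFD24 against HFD16 and PTFC against ND (main 3483, 1145, 3462, 7 and 445), and median centring gave 229 for PTFC against ND. For HFD24 against HFD16 all genes gave 3 on the deposited scale, 4 with median centring and 3 without the dimmest 25% of genes.

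The deposited scale moved the median of all genes to log2 -0.23 for HFD24 against ND and 0.24 for PTFC against HFD24. On that scale 41.3% of the called genes were higher in HFD24 than in ND livers (main 54.6%) and 90.5% were higher in PTFC than in HFD24 livers (main 49.3%). Among called serpins, 3 of 4 were higher in PTFC livers on that scale, against 1 of 3 in the main setting. On the deposited scale 34.4% of called genes were higher in HFD16 than in ND livers (main 55.3%) and 68.7% in PTFC than in ND livers (main 44.7%), and median centring gave 37.3% for PTFC against HFD24 and 32.8% for PTFC against ND. Called serpins were 5 of 10 higher for HFD24 against ND (main 6 of 10) and 5 of 10 for HFD16 against ND (main 8 of 11) on the deposited scale.

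The replicate number as a block gave 10, 2, 10, 0 and 1 members for HFD24 against ND, PTFC against HFD24, HFD16 against ND, HFD24 against HFD16 and PTFC against ND, and 337 genes in all for PTFC against HFD24 and 4 for HFD24 against HFD16. For HFD16 against ND, where all same-numbered pairs correlated in their deviations at over 0.1, the block ended the call of Serpinf1 and no other serpin call. Between the other groups, same-numbered arrays correlated in their deviations at -0.288 to 0.169, with 1 of 15 pairs over 0.1. There the block ended the calls of Serpinb9b for PTFC against HFD24 and of Serpinb9 for PTFC against ND.

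Among 38 single gene results under 20 alternatives, 627 values kept direction and side of the threshold, 83 lost the call, 41 gained one and 1 reversed: Serpinb2 in HFD24 against ND ran from log2 -3.97 to 0.49 with 1 array left out, and was positive without the second ND array. The cause was not tested for any of these. Signal over background limits the 18 dim members, since no detection measure was used.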
